A study of Mus musculus with 6 samples.

Results

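A group of 7 genes of microtubule-associated proteins, including tau, was followed through the embryonic dorsal root ganglion: Mapt (tau), Map1a, Map1b, Map2, Map4, Dcx (doublecortin) and Dclk1 (doublecortin-like kinase 1). They were chosen by name, as classical structural binders of the microtubule lattice, and are 7 of 37086 genes in the files. All 7 were found, and all 7 passed the filter on low counts. The RNA came from 1 pool of ganglia taken from 18 mouse embryos at 14.5 days post coitum, all wild type, of the C57BL/6J strain and of unknown sex. From that pool 6 libraries were made, 3 in a high-volume group that took the RNA in 9 µl and 3 in a low-volume group that took it in 1 µl, each at 3, 10 and 30 ng of total RNA. Each volume used its own SMARTer low-input kit, so volume and kit cannot be told apart. The libraries are technical repeats of 1 pool, so the SDs, SEs and p-values below describe technical repeats and say nothing of differences between embryos.

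Microtubules are hollow polymers of tubulin that give axons and dendrites their shape and carry their transport. Structural microtubule-associated proteins bind along the polymer wall and stabilise, space or bundle it. Tau, MAP2 and MAP4 form a family with shared repeats near the carboxyl end that contact the microtubule, and splicing decides how many repeats a tau or MAP2 molecule carries. MAP1A and MAP1B are large proteins that are cut into heavy and light chains, MAP1B being typical of growing axons and MAP1A of mature neurons. Doublecortin and the amino-terminal part of DCLK1 bind microtubules through doublecortin domains in young neurons.

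The exon that encodes the optional repeat is shown first for Map2 and Map4, because its level relative to its neighbours is the pattern compared across the tau family. Each copy is 93 bases long and wholly coding. On GRCm38 and on the plus strand, the Map2 copy lies at chr1:66431527-66431619 and the Map4 copy at chr9:110072613-110072705. Capitals mark the bases that are the same in both genes when the exons are laid side by side without gaps.
Map2 repeat exon: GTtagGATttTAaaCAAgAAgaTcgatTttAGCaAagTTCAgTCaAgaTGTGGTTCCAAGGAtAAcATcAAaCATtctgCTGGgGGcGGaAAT
Map4 repeat exon: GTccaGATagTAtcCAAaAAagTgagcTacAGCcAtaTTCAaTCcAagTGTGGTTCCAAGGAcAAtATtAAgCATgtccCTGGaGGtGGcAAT
In all, 59 of 93 bases, or 63.4%, were the same in both copies. Against the 1387 internal exons of that length annotated in protein-coding transcripts of genes outside the tau family, the Map2 copy had a median identity of 25.8% and a highest of 43.0%.

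In Mapt, 3 exons carry the results on the amino-terminal part of tau. Exons 2 and 3 encode the optional amino-terminal inserts, and exon 4A is the large exon of big tau, the long form known from peripheral neurons. All are coding and on the plus strand, at chr11:104287123-104287209, chr11:104289908-104289994 and chr11:104298546-104299256. Exons 2 and 3 are printed whole, and exon 4A by its first 120 bases (chr11:104298546-104298665), to identify the intervals counted below.
Mapt exon 2: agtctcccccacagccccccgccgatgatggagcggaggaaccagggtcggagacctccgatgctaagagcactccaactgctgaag
Mapt exon 3: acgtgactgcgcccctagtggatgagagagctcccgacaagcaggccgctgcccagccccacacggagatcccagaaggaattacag
Mapt exon 4A, first 120 bases: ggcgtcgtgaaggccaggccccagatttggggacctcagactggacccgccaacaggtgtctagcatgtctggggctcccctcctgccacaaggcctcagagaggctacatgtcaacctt
The GC content was 63.2% in exon 2, 62.1% in exon 3 and 63.3% in the whole of exon 4A. Exons 2 and 3, equal in length at 87 bases, had 34.5% of bases in common. No run of 50 bases of exons 2, 3 or 4A occurred in an annotated transcript of another gene.

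The transcripts that stand for the genes held 14160397 to 31524210 tags (the read counts of the deposited files) per library, with the fewest in the 3 ng library of each volume. Levels are given as RPKM, reads per kilobase of transcript, scaled to the tags of the library. All 8 sensory neuron markers reached a mean of 10 RPKM, as did 5 of 6 glial and 4 of 5 fibroblast markers, while all 6 spinal cord markers were under 1. The summed spinal cord level was 0.486 to 2.07 RPKM in high-volume and 0 to 1.44 in low-volume libraries. Endothelial (1 of 4), erythroid (4 of 4), skeletal muscle (2 of 5) and proliferating cell markers (2 of 4) also reached a mean RPKM of 10.

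Map1b and Mapt were the most abundant of the 7 genes by the transcript that held most tags. Map1b had a mean of 140.6 ± 22.4 RPKM (SD, n = 6 libraries), above 98.3% of all genes. Its RPKM was 125.9, 128.3 and 115.5 in the high-volume libraries of 3, 10 and 30 ng, and 172.9, 162.3 and 139.0 in the low-volume ones. Every high-volume value was thus below every low-volume value. The share of genes separated so by RPKM was not counted. With tags scaled to those of all chosen transcripts, 13.3% of 16120 genes were separated in that direction. Mapt had 90.9 ± 11.1 RPKM, with 108.3, 82.9 and 95.6 in the high-volume and 96.3, 79.7 and 82.5 in the low-volume libraries, and these groups overlapped. In bulk ganglia, fewer cells of a type and less RNA per cell cannot be told apart.

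Map4, Dcx, Map2 and Dclk1 lay close together, well below these. Map4, the member of the tau family found in most cell types, had 17.9 ± 1.06 RPKM, with high-volume values of 19.0, 16.7 and 17.5 and low-volume values of 19.2, 17.8 and 16.9 at 3, 10 and 30 ng. Dcx had 16.9 ± 2.84 RPKM (15.1, 18.6 and 16.8 against 12.7, 20.996 and 17.3). Map2, best known from dendrites, had 11.7 ± 3.56 RPKM (6.52, 12.3 and 10.1 against 10.6, 17.0 and 13.8), and the high-volume 3 ng library was its lowest. Dclk1 had 11.4 ± 1.20 RPKM (11.7, 10.6 and 10.6 against 11.6, 13.6 and 10.5). Map1a was the lowest at 2.18 ± 0.719 RPKM, still above 73.7% of all genes, with 3.49, 1.99 and 2.38 in the high-volume and 1.54, 1.56 and 2.11 in the low-volume libraries. High-volume 3 ng was the highest library for Map1a and the lowest for Map2.

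**Figure D1:**
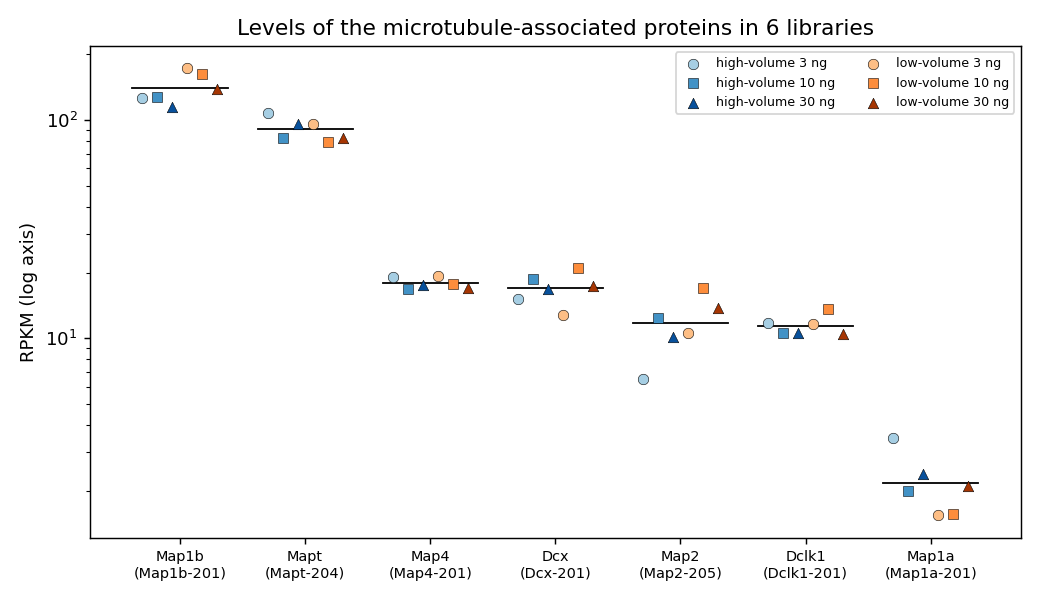
RPKM of the 7 genes (log axis) in each of the 6 libraries; points are libraries, colour is the volume, shape the input, and lines are means over 6. Map1b and Mapt lie between 79.7 and 172.9 in every library, and Map1a lies between 1.54 and 3.49.

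The order of levels was tested within libraries on log2(RPKM + 1) for all 21 pairs, by flipping the signs of the 6 differences in an exact, two-sided permutation test (smallest possible p of 0.0312). In 19 pairs the same gene was higher in 6 of 6 libraries, with a Benjamini-Hochberg adjusted p of 0.0345 for each in that exact test. Map4 and Dcx were not separated, with a mean difference of 0.09 ± 0.30 (SD) on the log2 scale, Map4 higher in 3 of 6 libraries and an adjusted p of 0.591 in the exact permutation test. Map2 and Dclk1 were not separated either, with a difference of -0.01 ± 0.41, Map2 higher in 3 of 6 libraries and an adjusted p of 0.969 in the same exact test. Map1b exceeded Mapt by 0.62 ± 0.32 on the log2 scale in 6 of 6 libraries. This last order rested on the transcript: with the transcript of largest RPKM for each gene, Mapt became a shorter form at 167.0 ± 36.6 RPKM, the difference turned to -0.23, and its adjusted p in the exact test was 0.394. The same choice left Map2 above Map1a by 1.48 with an adjusted p of 0.0729. Over the median of the constitutive internal exons, those in every protein-coding transcript that spans them, Map1b had 391.9 ± 31.6 RPKM and Mapt 222.2 ± 39.9. That median counts each exon once whatever its length. The longest of these Map1b exons (6490 bases) had 88.9 RPKM, and the Mapt exons had 151.1 to 262.3. The order by exons therefore depends on how the exons are weighted.

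Reads over Mapt were sparse on all its optional exons but exon 4. The measure is the exon's RPKM as a percentage of the reference, the median RPKM of the gene's constitutive internal exons, which were at 68.1% to 118% of that median in Mapt. Exon 2 stood at 13.3% ± 4.95 (SD, n = 6 libraries) and exon 3 at 12.7% ± 5.09. Exon 2 read 7.83%, 13.0% and 14.3% in the high-volume libraries of 3, 10 and 30 ng and 22.1%, 9.61% and 12.9% in the low-volume ones. Exon 3 read 16.7%, 8.37% and 11.2% against 21.1%, 9.82% and 8.95%. The volumes overlapped for both exons. Both were lower than the reference in 6 of 6 libraries, each with an adjusted p of 0.0396 in an exact sign-flip permutation test over the 6 libraries, adjusted over the 19 alternative internal exon intervals of the 7 genes. Exon 4 (66 bases), also annotated as optional, was at 106% ± 19.5 of the reference, from 82.9% to 135%, with an adjusted p of 0.627 in the same exact test.

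The large exon of big tau was read at under 1% of the constitutive exons in every library. Exon 4A (711 bases) had 92 tags over all libraries, or 0.353% ± 0.301 of the reference. It read 0%, 0.596% and 0.595% in the high-volume libraries of 3, 10 and 30 ng, and 0.0436%, 0.665% and 0.219% in the low-volume ones, so both 3 ng libraries were the lowest. The count of 0 allows up to 0.0958% of the reference in that library. A longer form of the exon (759 bases, with the same end and a start further upstream) had 0.368%, and exceeded its introns in 4 of 6 libraries. The mean RPKM of exon 4A was 0.769 and that of its neighbouring introns 0.441, and the exon exceeded the introns in 3 of 6 libraries. Exon 6 (198 bases) had 9 tags in all, at 0.144% ± 0.170 of the reference, and exceeded its introns in 1 of 6 libraries. Exon 8 (54 bases) had 12 tags, at 0.557% ± 0.786, and exceeded its introns in 4 of 6 libraries (a mean of 1.31 against 0.019 RPKM). All of these were lower than the reference in 6 of 6 libraries, with an adjusted p of 0.0396 each in the exact sign-flip test. For exon length, the background was that alternative exons of 500 bases or more had a median of 4.77% of their gene's reference (28 exons). Constitutive exons of that length had a median of 62.3% of the other constitutive exons of their gene (163 exons).

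**Figure D2:**
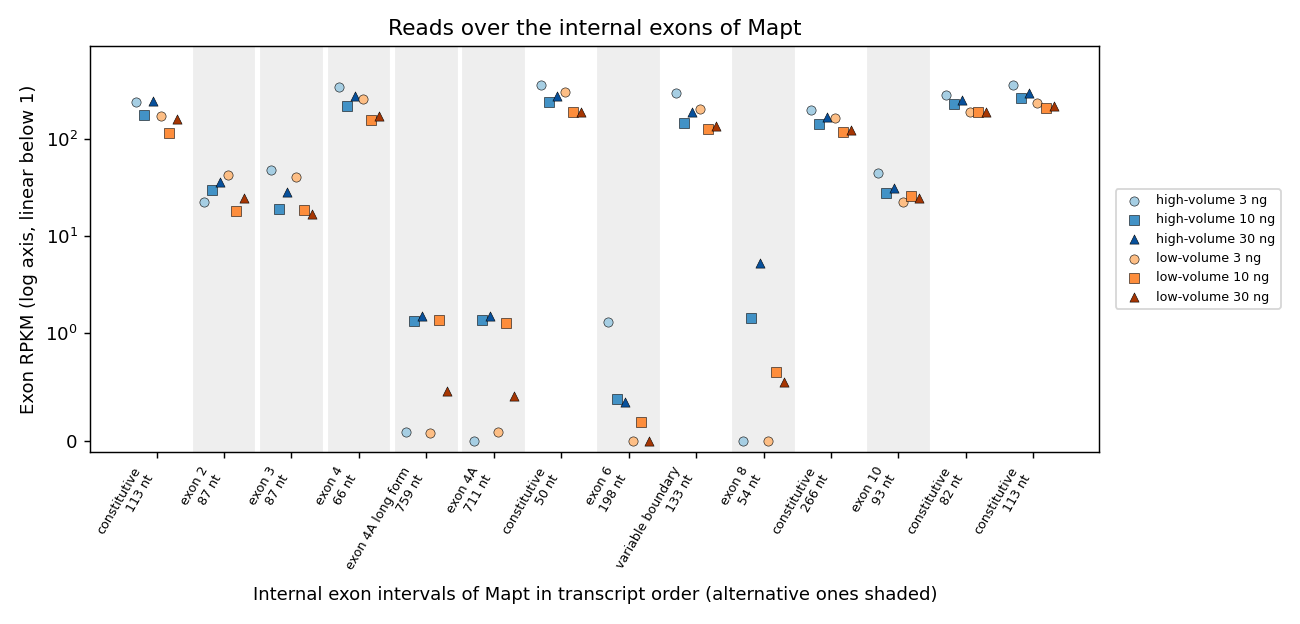
RPKM (log axis, linear below 1) of each internal exon interval of Mapt in transcript order, one point per library; shaded intervals are those tested as optional, and "variable boundary" marks an exon with more than 1 annotated edge. Exons 4A, 6 and 8 lie below 6 RPKM in every library while the constitutive exons lie above 100.

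The repeat exon was read far below its neighbours in Mapt and Map2, and near them in Map4. In Mapt, exon 10 was at 13.0% ± 1.42 of the reference, with 15.6%, 12.2% and 12.3% in the high-volume libraries of 3, 10 and 30 ng and 11.7%, 13.5% and 12.9% in the low-volume ones. Its spread was narrower than that of exons 2 and 3, and the volumes overlapped. Its mean RPKM was 29.2 against 0.318 in the introns beside it, and it exceeded them in 6 of 6 libraries. The adjusted p against the reference was 0.0396 in the exact sign-flip test, lower in 6 of 6 libraries. Exon 10 is in every annotated protein-coding transcript that spans it, so it was entered as optional by hand, from textbook knowledge of tau.

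The Map2 and Map4 copies printed above were measured in the same way. The Map2 copy, the exon of MAP2D, had 7 tags in all and stood at 3.32% ± 4.19 of the reference, with 0 tags in 3 of 6 libraries and an adjusted p of 0.0396 in the exact test. A count of 0 there allows up to 28.5% of the reference. The Map4 copy stood at 92.8% ± 34.1, from 51.7% to 151%, with an adjusted p of 0.454 in the exact test. In all 3 genes the repeat exon is followed by exons of 82 and 113 bases, which gives another yardstick from the same end of the transcript. Against those 2 exons the copy stood at 11.8% ± 1.23 in Mapt (393 tags over 6 libraries, range 10.3% to 13.7%). In Map4 it stood at 75.1% ± 21.02 (168 tags, 54.3% to 106%). In Map2 it stood at 4.65% ± 4.88 over the 5 libraries with tags in the yardstick, from 0% to 11.2%. The Map4 range lay above the Mapt and Map2 ranges, and the Mapt and Map2 ranges overlapped. These ratios between genes were not tested.

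**Figure D3:**
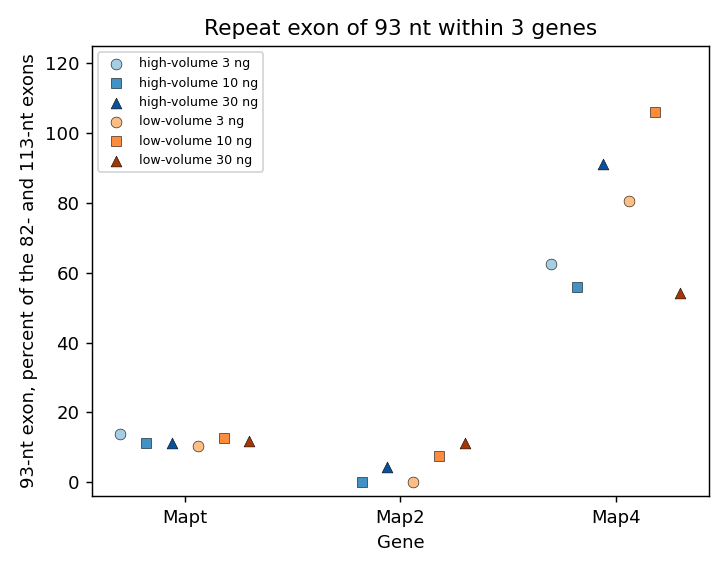
Level of the 93-base repeat exon as a percentage of the 82- and 113-base exons that follow it, per library, in Mapt, Map2 and Map4. The 6 Mapt points lie between 10.3% and 13.7%, the 6 Map4 points between 54.3% and 106%, and Map2 has no point for the high-volume 3 ng library, which had no tags there.

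The exons that mark the high-molecular-weight forms of MAP2 were read below the rest of the gene. The exon of 3741 bases that is in MAP2A and MAP2B and left out of MAP2C and MAP2D lies at chr1:66412407-66416147. Other annotated forms end or start inside this interval, so its tags need not come from MAP2A or MAP2B. The exon stood at 18.9% ± 6.76 of the reference, with 21.7%, 24.8% and 13.9% in the high-volume libraries of 3, 10 and 30 ng and 27.7%, 12.2% and 12.8% in the low-volume ones. The volumes overlapped, and the exon was lower than the reference in 6 of 6 libraries (adjusted p of 0.0396, exact sign-flip test). It was above the neighbouring introns in 6 of 6, with a mean of 1.74 against 0.982 RPKM. Constitutive exons of 500 bases or more had a median of 62.3% of the others of their gene. The share of transcripts that hold the 3741-base exon was not tested. The 246-base exon that marks MAP2A had 18 tags, at 3.36% ± 3.09, and exceeded its introns in 0 of 6 libraries. The exons of 207 and 135 bases next to the large exon were at 9.04% and 9.53%, and both were at 0 in both 3 ng libraries. Those counts of 0 allow up to 12.8% and 19.6% of the reference. A 65-base exon near the 5′ end varied from 0% to 622% (adjusted p of 1 in the exact test), and a 63-base one averaged 40.8%. The Map2 reference was 10.0 RPKM, so single tags weigh more here than in Mapt, and the high-volume 3 ng library had no tag on the 82- or 113-base exon.

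The large exon of muscle-type MAP4 was read at the level of its introns or below. That exon (3180 bases, chr9:110037288-110040467) had 89 tags, at 1.11% ± 0.919 of the reference, and was above its introns in 0 of 6 libraries. Its adjusted p in the exact sign-flip test was 0.0396, lower in 6 of 6. Skeletal muscle markers summed to 41.9 to 45.2 RPKM in the high-volume and 39.9 to 49.6 in the low-volume libraries, and their part in the Map4 values was not tested. A 114-base exon just before the repeat exon was at 43.1% ± 37.2, with 0%, 35.97% and 27.5% in the high-volume and 112%, 47.0% and 36.4% in the low-volume libraries. It did not pass (adjusted p of 0.0742, exact test), and passed at 0.0371 when its nearest constitutive exons were the reference. A short annotated form, Map4-206, ends in its own last exon, which had 16.3 ± 4.76 RPKM. The median over the 2 internal exons of that form was 36.6 ± 7.94 RPKM (SD, n = 6 libraries), against 12.3 ± 1.23 for the median over the 15 internal exons of the full-length Map4-201 that Map4-206 lacks.

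Dclk1 is transcribed from more than 1 start, and in these ganglia the upstream first exon had the higher level. The upstream first exon, shared by the full-length form and the short doublecortin-like form (Dclk1-203), had 5.70 ± 2.02 RPKM and that of the internal start, which leaves out the doublecortin domains, 0.693 ± 0.483 RPKM. The ranges, 3.40 to 8.07 and 0.318 to 1.64, did not overlap. The median over the 5 internal exons of Dclk1-203 was 14.8 ± 1.98 RPKM, and that over the 10 internal exons of Dclk1-201 that Dclk1-203 lacks, towards the kinase part, 10.2 ± 2.77. Within libraries the ratio of these medians was 1.51 ± 0.323, from 1.03 in the low-volume 10 ng library to 2.02 in the high-volume 10 ng library. The last exons of the short and of the long form had 10.8 ± 3.03 and 11.3 ± 1.27 RPKM, a pair of levels that overlapped. A 74-base exon near the 3′ end had 8 tags, at 6.20% ± 5.82 of the reference (adjusted p of 0.0396, exact test). It had 0 tags in 2 of 6 libraries, which allows up to 21.7% of the reference there. In Dcx, the 3 constitutive coding exons had 19.0 to 22.5 RPKM, and the gene has no optional internal exon by the annotation.

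In Map1b, which has 1 annotated transcript, the internal exons were far from equal. The exons of 141, 83 and 102 bases were at 103%, 121% and 105% of the reference, and the 6490-base exon that encodes most of the heavy chain at 22.7% ± 1.69. An exon of 239 bases (chr13:99427219-99427457, minus strand) was at 3.10% ± 1.91, or 12.0 RPKM, with 429 tags. It read 5.16%, 3.11% and 5.19% in the high-volume libraries of 3, 10 and 30 ng and 0.122%, 2.50% and 2.49% in the low-volume ones. These groups did not overlap, but the low-volume 3 ng value rests on 2 tags. The share of constitutive exons in other genes whose volumes did not overlap was not counted. With 1 annotated transcript, the annotation could not show this exon as optional, and whether it is skipped was not tested. Its coding sequence is printed to identify the interval.
Map1b exon of 239 bases: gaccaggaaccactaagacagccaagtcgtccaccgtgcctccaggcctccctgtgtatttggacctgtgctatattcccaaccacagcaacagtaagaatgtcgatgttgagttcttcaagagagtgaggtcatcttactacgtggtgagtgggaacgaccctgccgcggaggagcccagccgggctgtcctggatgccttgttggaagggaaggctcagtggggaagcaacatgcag
Its GC content was 55.6%, and none of its runs of 50 bases occurred in an annotated transcript of another gene. Of the 27714 constitutive internal exons of 3363 genes with a reference of at least 10 RPKM, 0.866% averaged under 25% of the others of their gene. The share was 9.82% for exons of 500 bases or more and 1.56% for those of 200 to 300 bases. In the 7 genes 3 of 51 averaged under 25% of the reference, a median that, unlike the background's, includes the exon itself. They were both of these Map1b exons and 1 exon with 4 tags in Map1a, a gene below the level the background required. Map1a had few tags on its short internal exons, 4 to 84 each over the 6 libraries, and 1910 on the 8104-base one. Its first exon in Map1a-201 had 2 tags in all, while the first exon of Map1a-202, further downstream, had 3.03 RPKM.

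Over the 7 genes, 14 of the 19 optional intervals averaged under 25% of the reference, where 33.2% of 1907 alternative internal exons did in genes with at least 3 constitutive exons and a reference of at least 10 RPKM. Mapt held 7 of these 14, with the short and long form of exon 4A counted separately though they overlap. The 19 and the 14 include Mapt exon 10, which was entered by hand, whereas the 1907 were taken by annotation alone. By the exact sign-flip test, 15 of 19 intervals were lower than the reference in 6 of 6 libraries, 0 were higher and 4 did not pass. Of the same 1907 exons, 53.4% were lower in 6 of 6 libraries and 9.23% higher. The 4 were Mapt exon 4, the 65-base Map2 exon and the 114- and 93-base Map4 exons. Between volumes, 2 of the 19 did not overlap, Mapt exon 6 and the 114-base Map4 exon, where 10.5% of the 1907 exons did not, and the exact permutation test of 3 against 3 cannot go below p = 0.1. For exons of 80 to 110 bases, the length of exons 2, 3 and 10 of Mapt, 31.7% of alternative and 0.551% of constitutive exons were under 25%.

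**Figure D4:**
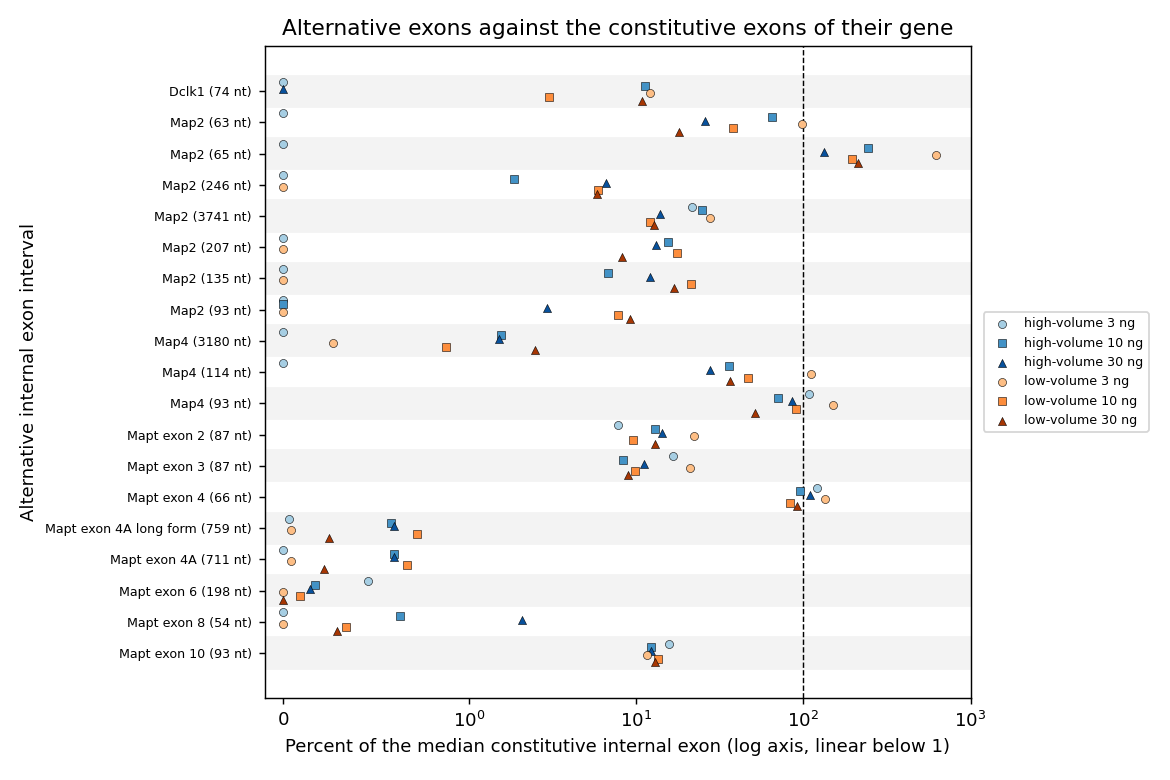
Level of each of the 19 optional exon intervals as a percentage of the median constitutive exon of its gene (log axis, linear below 1), one point per library; the dashed line is 100%. Mapt exons 4A, 6 and 8 and the 3180-base Map4 exon lie below 3% in every library, and Mapt exon 4 and the 93-base Map4 exon lie on both sides of 100%.

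Reads over the last exons were uneven as well. In Mapt the first 216 bases of the last exon, next to the coding exons, had 213 RPKM, while the distal 3655 bases had 64.9 ± 5.70, or 30.0% of the reference. In Dcx the order was the other way: the distal 4869 bases had 24.3 ± 4.32 RPKM and the stretches before it 8.04, 4.86 and 4.47. In Map2 the distal 553 bases had 30.9 ± 8.22 RPKM against 10.2 and 4.23 in the stretches before. In Map1a the order was as in Mapt, with 6.85 RPKM in the proximal and 0.671 in the distal part. A transcript's RPKM averages over such stretches, so it depends on which end the chosen transcript has. The stretch of the first exon found only in Mapt-204, the transcript chosen for tau, had 2 tags in all.

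None of the 7 genes passed the test for volume or for input across all genes. The edgeR quasi-likelihood test called 0 of 7 at an adjusted p of 0.05 for volume, where it called 1 of 16120 genes (0.0062%). At an unadjusted p of 0.05 it called 3 of 7, where 6.67% of all genes were called. Map1b was at 1599 ± 95.2 CPM (tags scaled to those of all chosen transcripts) in the high-volume and 2011 ± 211 in the low-volume libraries (SD, n = 3 each). The groups did not overlap, as in 13.3% of genes in that direction, and the fitted difference, high minus low, was -0.21 ± 0.07 (SE) on the log2 scale (edgeR p of 0.0222, adjusted 0.690). No gene of the 7 had every high-volume value above every low-volume one, as 4.56% of genes did. Mapt differed by 0.30 ± 0.12 (edgeR p of 0.0343, adjusted 0.744), and by 0.56 with the transcript of largest RPKM. Map1a differed by 0.73 ± 0.28 (edgeR p of 0.0329, adjusted 0.744), and by 0.35 without the high-volume 3 ng library. The other values were -0.38 ± 0.22 for Map2, 0.13 ± 0.11 for Map4, 0.14 ± 0.17 for Dcx and 0.03 ± 0.13 for Dclk1. Within inputs, high volume was higher in 3 of 3 pairs for Mapt and Map1a and lower in 3 of 3 for Map1b and Map2. The share of all genes with the same direction in 3 of 3 pairs was not counted, so these counts set no gene apart. With input as a block, Map2 was at -0.39 ± 0.11 (edgeR adjusted p of 0.564), and with a library left out between -0.60 and -0.20. The median was 0.13 over the 7 genes and 0.02 over all genes. Scaling to total counts moved the median of all genes to -0.10, and there Map1b was at -0.33, Mapt at 0.18, Map1a at 0.61 and Dclk1 at -0.10.

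The volume groups of Mapt did not overlap in the median over its constitutive internal exons and overlapped over the distal part of its last exon. The median RPKM of its constitutive internal exons was 284.4, 228.2 and 251.8 in the high-volume libraries of 3, 10 and 30 ng and 190.2, 189.3 and 189.2 in the low-volume ones. The groups did not overlap, which in that direction held for 2.29% of 3363 genes with a reference of at least 10 RPKM, and in the opposite direction for 26.4%. That median lay close to the 82-base exon, which was at 100.1% ± 0.199 of it. Single exons were mixed, and the groups did not overlap in the 82-base and the 113-base exons. In the 50-base exon they did, with 300.2 RPKM in low-volume 3 ng and 235.9 in high-volume 10 ng. The same held for the 266-base exon, with 162.6 and 140.0 in those libraries. In the distal part of the last exon the high-volume libraries had 68.8, 55.4 and 64.4 RPKM and the low-volume ones 72.3, 63.8 and 64.9, which overlapped. The volumes were not tested on these values, since an exact test of 3 against 3 cannot pass.

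Per doubling of the input, edgeR called 0 of 7 genes at an adjusted p of 0.05 and 0 of 16120 genes (0%). At an unadjusted p of 0.05 it called 1 of 7, where 7.77% of all genes were called. That gene was Map1b, with a slope of -0.06 ± 0.03 on the log2 scale (edgeR p of 0.0451, adjusted 0.625). Map2 and Dcx had slopes of 0.16 ± 0.09 and 0.09 ± 0.07. DESeq2 called 166 genes for volume and 62 for input, none of the 7 among them.

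**Figure D5:**
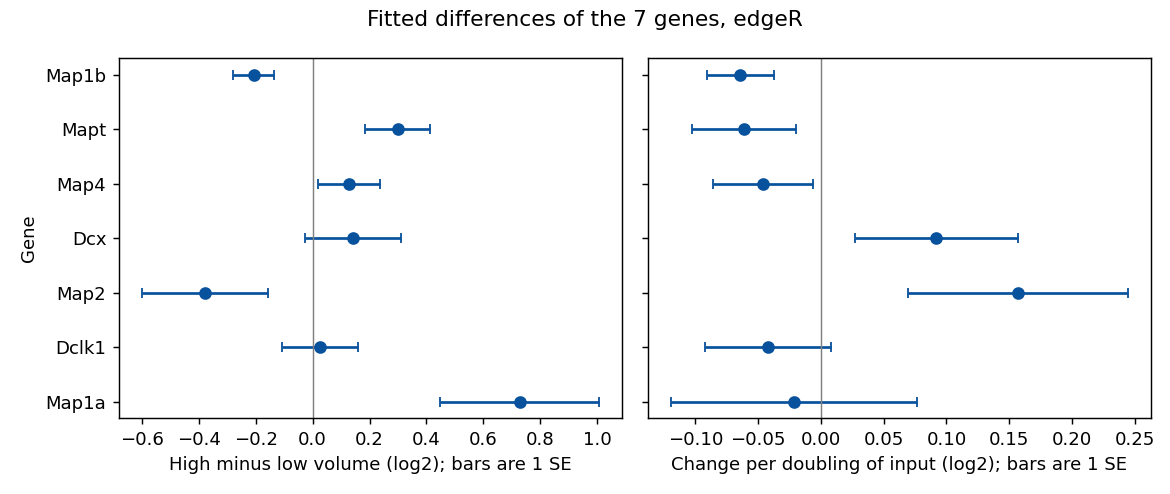
Fitted log2 difference between high and low volume (left) and log2 change per doubling of input (right) of the 7 genes from the edgeR fit, with bars of 1 SE. For volume, Map1a lies farthest above 0 at 0.73 and Map2 farthest below at -0.38, and none of the 14 values passed the adjusted threshold.

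A further 36 genes that act on microtubules with these proteins were read as context. Of these 36, 12 reached a mean of 10 RPKM and 3 stayed under 1. The highest were Map1lc3b and Map1lc3a, which encode LC3 proteins first known as light chains of the MAP1 complexes, at 166.8 ± 25.2 and 130.4 ± 28.8 RPKM. Cdk5 and Gsk3b, kinases that phosphorylate tau, were at 68.9 ± 5.40 and 29.3 ± 6.89. Mapre2 and Mapre1, end-binding proteins of growing microtubule tips, were at 66.6 ± 7.34 and 38.8 ± 5.19. EdgeR called 0 of 36 for volume and 0 of 36 for input at an adjusted p of 0.05. At an unadjusted p of 0.05 it called 4 and 2, where 6.67% and 7.77% of all genes were called. The volume groups did not overlap for 6 of 36, where 17.9% of all genes did not. Higher in high volume were Map6, Clip2 and Gsk3a, and lower were Gsk3b, Map1lc3b and Mapre1. The list's median difference between volumes was 0.04 on the log2 scale.

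The genes whose centred log2 CPM over the 6 libraries lay nearest to each member were sought among the genes with a mean RPKM of 10 or more (4619, and 4620 for Map1a). The measure is the root mean square distance, and it describes 6 libraries of 1 pool that share depth and kit. For Map1b the nearest was Snap25, a synaptic vesicle fusion protein, at a distance of 0.0327, followed by Zfp706 and Ebf1. For Mapt they were Arhgdig at 0.0327, Snrpc and Gpx1, and for Map4 Eif3b at 0.0223, Cap1 and Ss18l2. For Dcx they were Larp7 at 0.0202, Ubash3b and Apool, and for Dclk1 Tsen15 at 0.0529, Ccz1 and Stt3b. Map2 (Ctnnal1 at 0.0785, Lamp2, Trim32) and Map1a (Gramd1a at 0.113, Gm29394, Snhg9) had the most distant nearest genes of the 7.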

How the data were processed

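RNA of 1 pool of embryonic ganglia was measured in 6 libraries. Per the submitters' processing notes, the tools were Bowtie2 2.1.0, TopHat2 2.0.8 and CASAVA 1.8, and the genome build GRCm38.p1. Which program made the counts, with which strand setting and annotation release, is not given in the sources used here. Per the file headers, these files hold, per transcript, exon and intron, a whole-number tag count and an RPKM made by the authors. In all 93615 transcripts the count equalled the sum of the exon counts.

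Transcripts were assigned to genes with GENCODE M21 (89664 matched, 37086 genes; 3951 unmatched ones stayed out of the gene tests), and the transcript with the largest summed count stood for each gene. Reads shared between forms or overlapping genes cannot be told apart (Map1a shares 2.3% of its bases, Map2 1.19%, Dclk1 1.11%). The count test was edgeR 4.0.16 quasi-likelihood in R 4.3.3 (TMM, filterByExpr, volume plus centred log2 input, 3 residual degrees of freedom, Benjamini-Hochberg over 16120 genes). DESeq2 1.42.0 was an alternative. Deviations from the volume mean were weakly correlated between libraries of the same input (0.132, 0.111 and 0.126 at 3, 10 and 30 ng, the inputs coming from the labels). Libraries of unlike input were not compared in this way. A fit with input as a block was also made. Replicate numbers 1, 2 and 3 are the 10, 3 and 30 ng libraries.

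Exon levels were compared as log2 of RPKM plus 0.1, pairs of genes as log2 of RPKM plus 1, by exact permutation tests in Python 3.11.15. An optional exon is an annotated internal exon that a protein-coding transcript of the gene spans without it; intervals with more than 1 annotated edge were left out of the test. Mapt exon 10 was added by hand and kept out of the reference. Sequences were cut from the GENCODE M21 transcripts. Some sequences are not reported here. Tags carry no molecular identifiers, and limits from a count of 0 use 3 counts and cover counting error only. Scripts were tested on simulated data. Named were the 7 members, the optional exons of Mapt, exons and starts that separate known forms of the others, the highest context genes and the 3 nearest genes by distance. The members and lists were chosen with earlier results of these data known.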

Additional observations from a re-analysis of the deposited data

How the results depend on the processing

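None of the 7 genes was called for volume or input under any alternative run: total-count scaling, DESeq2, no low-count filter, the other transcript choice, no input term, input as a replicate block, 10 and 30 ng only (volume), and each library left out. Over all genes the volume calls moved from 1 to 166 with DESeq2, 11 without the filter, 278 with the 10 and 30 ng libraries only, and 0 with input as a replicate block, which changed no call on the 7 genes. With a library left out they were 0 to 2, with 0 without the low-volume 3 ng library and 2 without the high-volume 30 ng library. Input calls moved from 0 to 62 with DESeq2 and 2 without the filter. The 15 exon calls are 0 with any library left out, by construction, since 5 libraries allow no p below 0.0625.

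Of the values that changed sign, Map1b minus Mapt had passed its test and the others had not. For Dclk1 the volume difference was -0.10 with total-count scaling and -0.051 with 10 and 30 ng only. With a library left out it ranged from -0.086 to 0.13 for Dclk1 and from -0.067 to 0.32 for Dcx, and input slopes from -0.14 to 0.15 for Map1a and from -0.0052 to 0.15 for Dcx. With the transcript of largest RPKM, Map1b minus Mapt was -0.23 and Map2 minus Dclk1 was 0.012. The 65-base Map2 exon was at -0.59 (log2 of its ratio) against its nearest exons and -0.49 to 1.27 with a library left out, and Mapt exon 4 -0.012 to 0.13. The causes were not tested. Mapt exon 4 passed with summed tags as the reference (0.26, adjusted p of 0.0371 in the exact test). Depth limits the ratios that rest on few tags, such as the 7 tags of the Map2 repeat exon.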
